A study of Mus musculus with 6 samples.

Results

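Rab GTPases are the small membrane-bound switches that mark each compartment of vesicle traffic. In the deposited table they were taken as every probe row whose gene symbol is Rab followed by a number and at most 1 letter, which leaves out proteins that bind Rabs and those that load them with GTP. The rule found 74 of 30146 probe rows, for 59 of 21400 genes. RNA was measured with TempO-Seq, in which paired oligonucleotides that sit next to each other on an RNA are joined and counted, so each row reports a single short stretch of a transcript. The samples were whole pancreatic islets of 3 male wild-type (WT) C57Bl/6 mice, whose ages the labels do not give. Each mouse's islets were split between cisplatin, a platinum drug that crosslinks DNA, at 10 uM for 48 h, and its vehicle, 0.9% saline, for the same time. This gave 3 cisplatin and 3 vehicle libraries, called here cisplatin 1 to 3 and vehicle 1 to 3, where the same number marks the same mouse.

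A Rab bound to GTP sits on its membrane and recruits effectors that move, tether and dock the vesicle, and it is released to the cytosol by GDP dissociation inhibitor once GTP has been cleaved. In endocrine cells the Rab3 and Rab27 families sit on hormone granules and act in their docking and release, while Rab5, Rab7 and Rab11 and their relatives act in uptake, degradation and recycling. Rab1, Rab2 and Rab6 act between the endoplasmic reticulum (ER) and the Golgi. The 59 genes were placed by such textbook roles into 6 secretory Rab3 and Rab27 genes, 6 other exocytic and post-Golgi genes, 20 endosomal genes, 16 ER and Golgi genes, and 11 genes of lysosome-related organelles or other roles. Several Rabs act at more than one membrane, so the groups are a reading aid.

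Total counts were 1116916, 1348297 and 1366829 in cisplatin libraries and 1998063, 1470227 and 2272276 in vehicle libraries, and Rab rows held 2023 to 3073 counts in cisplatin libraries and 4465 to 5833 in vehicle libraries. A level of 3 counts, taken as the limit that a count of 0 allows, was 2.54 to 3.22 CPM (counts scaled to a common library size) in cisplatin libraries and 1.18 to 1.89 CPM in vehicle libraries, counting error only. All CPM values are scaled with edgeR's TMM factors, and log2 fold changes are cisplatin minus vehicle with their standard error. A row is called, and said to have risen or fallen, at an adjusted p under 0.05 in edgeR's two-sided quasi-likelihood test over all tested rows. Of the islet cell markers, 4 of 8 tested beta cell genes, 2 of 5 alpha cell genes, 1 of 4 delta and PP cell genes (2 with the mouse as a block), 3 of 5 endothelial and stromal genes and 5 of 6 immune cell genes fell by their most abundant probe, and 0 of these rose (0 at an unadjusted p under 0.05, with DESeq2 or with limma-voom), where 13.8% of all genes fell and 12.3% rose. A further probe row of a beta cell gene, not its most abundant, was called higher. A gene that passed the count filter only through its vehicle libraries could only be called lower. Irx1 of the alpha cell list, with 0 counts in cisplatin libraries and 100 in vehicle libraries, was such a gene. The other marker genes were not sorted by this, so the counts that fell and rose were not equally open to both directions. Summed levels of the beta cell list were 67145 to 148137 CPM in cisplatin libraries and 94458 to 167686 CPM in vehicle libraries. The alpha cell list held 8030 to 10974 CPM in cisplatin libraries and 17382 to 50855 CPM in vehicle libraries, and the delta and PP cell list 1589 to 3129 CPM in cisplatin libraries and 1994 to 5221 CPM in vehicle libraries. The acinar and duct list, with 0 of 1 tested gene called, held 1214 to 2215 CPM in cisplatin libraries and 1102 to 1546 CPM in vehicle libraries, with Prss2 at 0 in all 6 libraries. The endothelial and stromal list held 39.7 to 81.5 CPM in cisplatin libraries and 92.2 to 243 CPM in vehicle libraries, and the immune list 13.5 to 86.9 CPM in cisplatin libraries and 157 to 302 CPM in vehicle libraries. In whole islets, fewer cells of a type and less RNA per cell cannot be told apart, and the part of these marker changes in the Rab results was not tested.

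Cisplatin islets had lower Rab3a, Rab27a, Rab1a, Rab6a, Rab6b and Rab7 and higher Rab21, Rab23, Rab33b, Rab43 and Rab13 than vehicle islets. Of the 74 rows, 43 rows of 34 genes held enough counts to be tested. The other 31 rows held at most 34 counts over all 6 libraries, and 3 of them, those of Rab38, Rab44 and Rab5a, held none. Among the 43 tested rows, 12 were called, or 27.9%, against 25.0% of all 9381 tested rows. The 5 rows that rose made 11.6% of the tested Rab rows against a background of 11.1%, and the 7 rows that fell made 16.3% against 13.9%. With each gene represented by its most abundant probe, 11 of 34 Rab genes were called, or 32.4%, against 26.1% of 7186 genes, with 12.3% of those higher and 13.8% lower. All these shares lie near the background. Among the rows that fell, Rab6b and the less abundant Rab3a row passed the count filter only through their vehicle libraries, so they could only be called lower. Without vehicle 1 the test called 4 Rab rows and without vehicle 3 it called 5, where it also called fewer rows in all (1085 and 1321, against 2344 with all 6 libraries). The median log2 fold change was −0.12 over the tested Rab rows and −0.07 over all tested rows, and 23 of 43 Rab rows were below 0. All cisplatin libraries lay below all vehicle libraries in 10 Rab rows and above them in 8, where 24.3% and 19.1% of all tested rows did so.

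**Figure D1:**
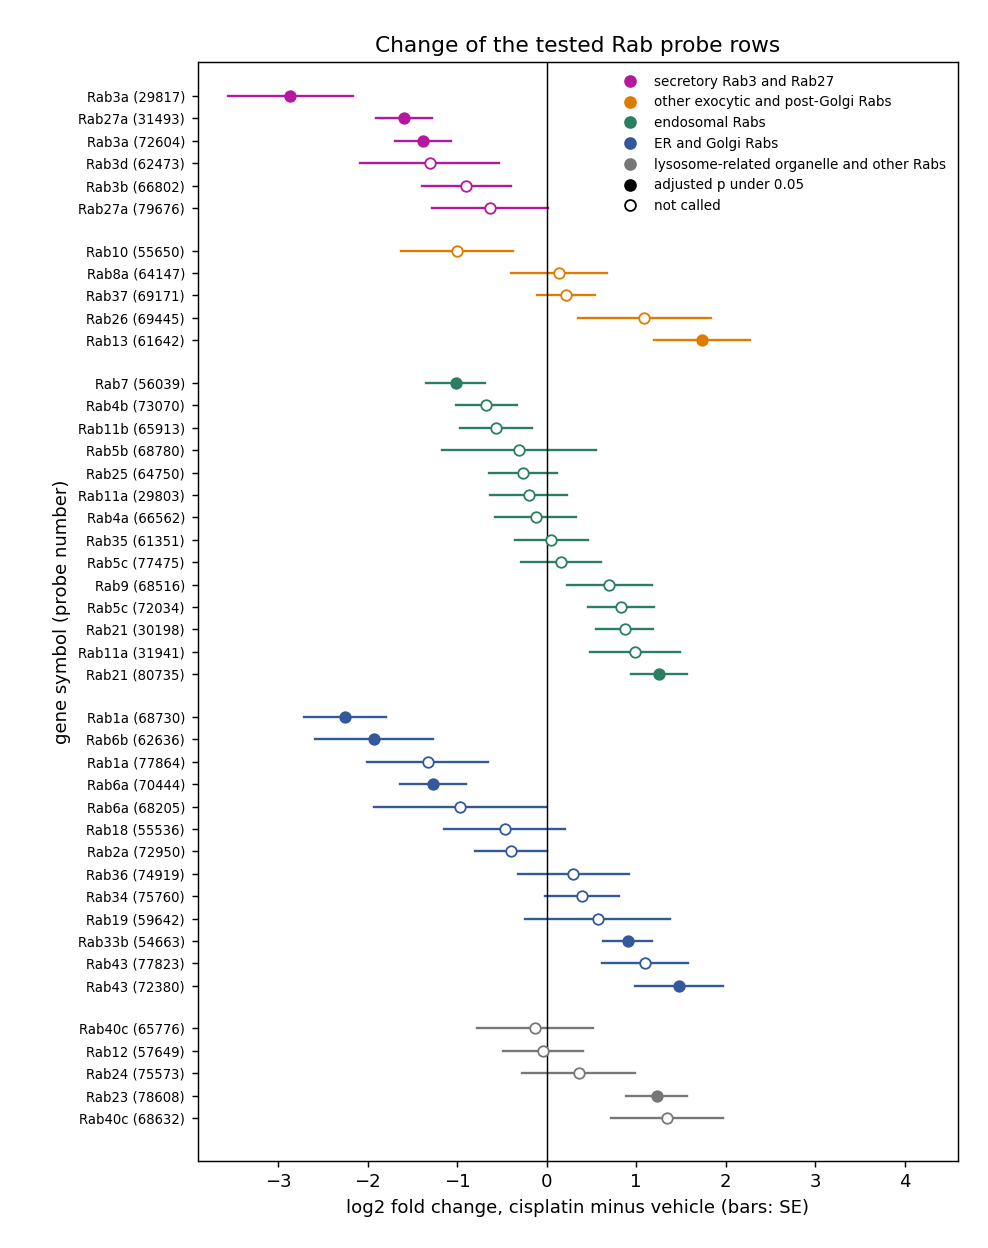
Log2 fold change, cisplatin minus vehicle, with its standard error (bars) for the 43 tested Rab probe rows, coloured by group, with filled points for rows with an adjusted p under 0.05. The 6 Rab3 and Rab27 rows, of 4 genes, all sit below 0, from −2.86 to −0.63, while the endosomal rows lie on both sides of 0, from −1.02 to 1.25. Rab3d and the less abundant Rab3a row passed the count filter only through vehicle libraries, which favours a place below 0.

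With library totals in place of TMM factors the median over all rows moved to −0.54, 8 Rab rows fell (21.6% of all rows) and 0 rose (4.89% of all rows; 2 Rab rows were higher at an unadjusted p under 0.05), with adjusted p between 0.112 and 0.328 for the 5 rows that had risen. Measured from the median of all rows, the same 5 rows stayed at like distances under both scalings. Rab21 lay 1.33 above the median with TMM factors and 1.31 above it with library totals, and Rab33b 0.98 and 1.02 above it. With no filter on low counts, Rab21 was the only Rab row called higher, where 3.58% of all rows were. Rab1a, Rab3a and Rab27a were called lower under all 15 alternatives tried.

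Among the secretory Rabs, 4 of 6 genes were tested. Of these 4, 2 fell, where 13.8% of all genes did. None of the 4 rose (0 also at an unadjusted p under 0.05, with DESeq2 and with limma-voom), where 12.3% of all genes did. Rab3d, among the 4, passed the count filter only through its vehicle libraries and so could only be called lower. Rab3a, a GTPase of synaptic vesicles and of dense-core granules that mouse beta cells need for full insulin release, had 92.2, 48.5 and 72.9 CPM in cisplatin libraries, against 164, 220 and 175 CPM in vehicle libraries. Every cisplatin library lay below every vehicle library. The fall was 2.61-fold, a log2 fold change of −1.38 ± 0.31 (adjusted p = 0.00619, edgeR). Rab27a, which sits on insulin granules and recruits the docking factor granuphilin, had 45.7, 49.4 and 34.3 CPM in cisplatin libraries, against 121, 144 and 128 CPM in vehicle libraries. Here too the groups did not overlap, and the level averaged 43.1 ± 7.87 CPM in cisplatin libraries and 131 ± 12.01 CPM in vehicle libraries (SD, n = 3 each), a 3.02-fold fall (log2 −1.59 ± 0.31, adjusted p = 0.00243, edgeR). Both calls held with any 1 library left out, with adjusted p up to 0.0296 for Rab3a and up to 0.0165 for Rab27a.

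The remaining Rab3 and Rab27 genes gave few counts, and none was called. Rab3b, a close relative of Rab3a found in endocrine cells, had 14.4, 10.5 and 12.9 CPM in cisplatin libraries, against 21.4, 24.0 and 25.2 CPM in vehicle libraries (log2 −0.90 ± 0.50, adjusted p = 0.206, edgeR). Rab3d, known from secretory granules of exocrine cells, had 0.846, 8.56 and 7.51 CPM in cisplatin libraries, against 13.4, 11.4 and 16.5 CPM in vehicle libraries (log2 −1.31 ± 0.77, adjusted p = 0.240, edgeR). In both genes all cisplatin libraries lay below all vehicle libraries, but the 95% intervals of the log2 fold change ran from −1.87 to 0.07 for Rab3b and from −2.82 to 0.21 for Rab3d. Rab3c held 0, 0 and 0 counts in cisplatin libraries and 1, 0 and 3 counts in vehicle libraries. Rab27b, the second Rab27 isoform, held 0, 1 and 0 counts in cisplatin libraries and 0, 9 and 0 counts in vehicle libraries. Neither was tested, and no difference was detectable at this depth.

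Rab3a spans chr8:70754679-70758677 on the + strand (4 kb) and Rab27a spans chr9:73044854-73097629 on the + strand (52.8 kb), both in GENCODE M21 on GRCm38. As the 2 secretory Rabs that fell together, their upstream sequence is shown for the first of the RefSeq transcript starts of each, from 250 bases before that start on GRCm38.p6 and free of annotated exons. Capitals mark matches on either strand to CCAAT, the box bound by NF-Y. They also mark GGGCGG, the box bound by Sp1, on either strand, and the E-box core CACGTG. A match on the opposite strand appears as the reverse complement of these letters.

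Rab3a (chr8:70754453-70754678, + strand): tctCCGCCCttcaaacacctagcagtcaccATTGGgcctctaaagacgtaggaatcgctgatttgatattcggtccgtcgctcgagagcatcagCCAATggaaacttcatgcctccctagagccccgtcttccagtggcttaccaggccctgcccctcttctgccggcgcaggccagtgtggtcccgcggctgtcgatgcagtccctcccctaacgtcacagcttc
Rab27a (chr9:73044560-73044809, + strand): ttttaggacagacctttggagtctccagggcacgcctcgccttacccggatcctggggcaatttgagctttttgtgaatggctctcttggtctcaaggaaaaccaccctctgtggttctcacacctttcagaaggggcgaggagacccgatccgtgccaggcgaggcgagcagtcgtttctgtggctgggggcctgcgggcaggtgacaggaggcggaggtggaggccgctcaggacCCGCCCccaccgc

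The Rab3a stretch held CCAAT at 2 places and GGGCGG at 1, and the Rab27a stretch held GGGCGG at 1 place and no CCAAT or CACGTG. A second stretch upstream of another Rab3a start held none of the motifs, and one upstream of another Rab27a start held CCAAT at 2 places and CACGTG at 1. RefSeq promoter windows of 300 bases, 250 before and 50 after each start, were found for 48 of the 59 Rab genes (60 windows). GGGCGG was present in 68.3% of the Rab windows and 35.7% of all 32851 windows, and CCAAT in 43.3% and 37.4%. Both directions of change carried GGGCGG, in 5 of 6 genes that fell and 5 of 5 that rose, beside 11 of 17 that were not called. CCAAT was found in 4 of 6 genes that fell, 2 of 5 that rose and 8 of 17 not called. CACGTG was found in 10.0% of Rab windows and 7.15% of all windows, and TGACGTCA, the cAMP response element, in 3.33% and 1.79%, in none of the genes called. The median GC content of the windows was 62.7% for genes that fell, 60.8% for genes that rose, 63.7% for Rab genes not called, 60.3% for those not tested and 52.7% over all windows. A match is a stretch of letters, and binding was not measured.

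**Figure D2:**
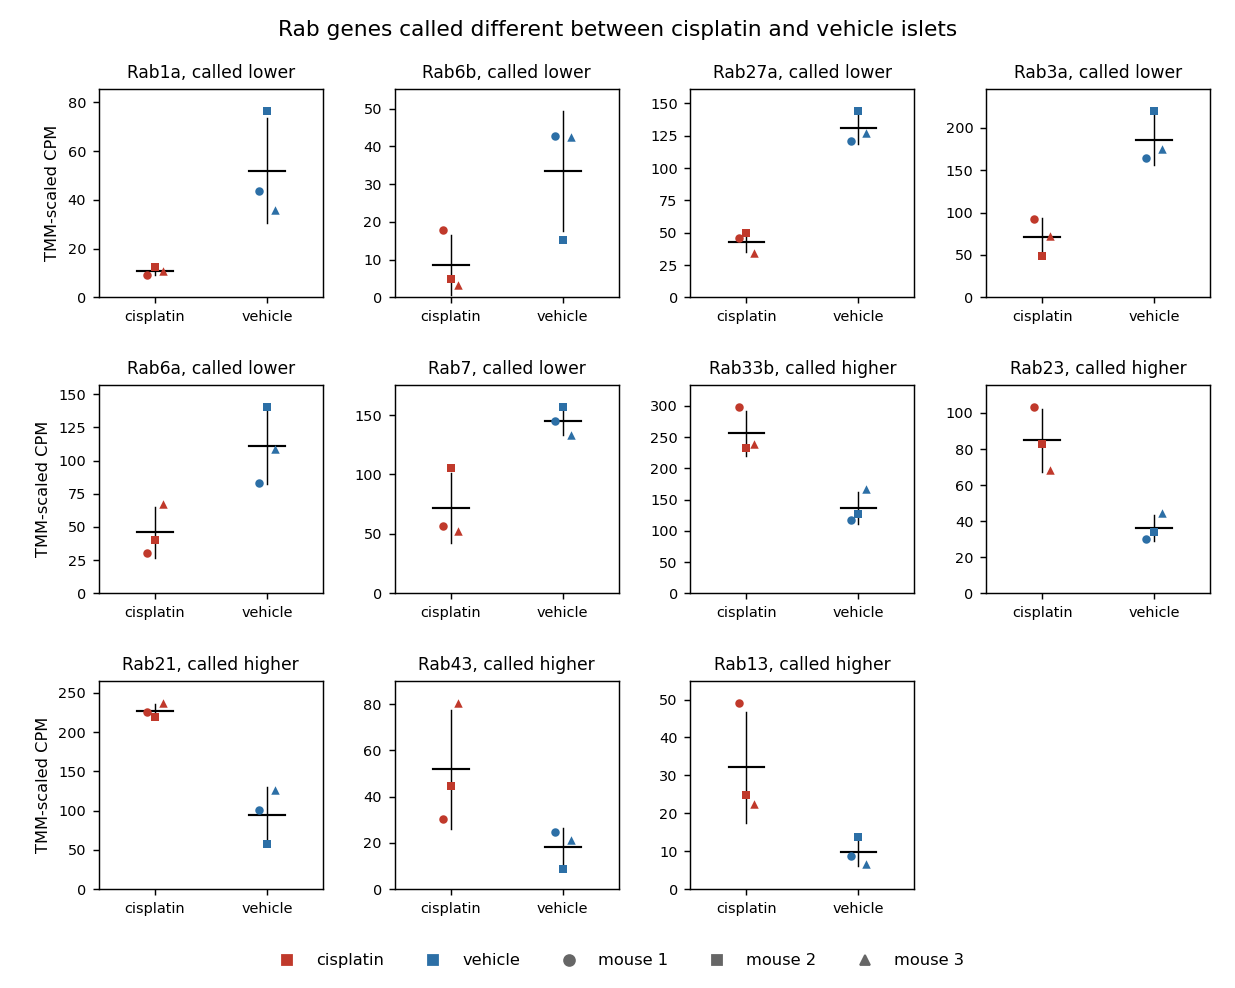
TMM-scaled CPM of the 11 Rab genes with an adjusted p under 0.05, each by its most abundant probe, in 3 cisplatin and 3 vehicle libraries. Symbols mark the mouse, horizontal lines the group mean and vertical lines the SD. Only Rab6b overlaps between the groups, through 17.8 CPM in cisplatin 1 and 15.2 CPM in vehicle 2.

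Transcripts of effectors and regulators of Rab3 and Rab27 were measured beside these Rabs. Of 20 effectors and regulators in the list, 9 were tested, 5 fell and 1 rose, where 13.8% and 12.3% of all genes did, and their median log2 fold change was −1.70, against −0.07 over all tested rows. Myrip, which links Rab27a granules to myosin, held 0, 0 and 0 counts in cisplatin libraries and 25, 19 and 36 counts in vehicle libraries. Its level was at least 12.7-fold lower, with the bound set at 3 counts over the whole cisplatin group (adjusted p = 0.00491, edgeR), and the list's median is also −1.70 with Myrip at that bound. Myrip passed the count filter only through its vehicle libraries, so it could only be called lower, and it is 1 of the 5 that fell. It was not tested with the filter at a mean CPM of 10 or more, nor at equal depth. Rph3al, or Noc2, an effector of both families in endocrine exocytosis, had 0, 16.2 and 15.0 CPM in cisplatin libraries, against 77.1, 62.5 and 114 CPM in vehicle libraries (log2 −3.05 ± 0.68, adjusted p = 0.00536, edgeR). With DESeq2 the adjusted p of Rph3al was 0.0551, which ends the call, and over all alternatives it ran from 6.1e-09 to 0.0551. With no counts in cisplatin 1, Rph3al also needed vehicle libraries to pass the count filter.

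Madd, the exchange factor that loads Rab3 and Rab27 with GTP, had 38.1, 80.8 and 51.5 CPM in cisplatin libraries, against 269, 159 and 249 CPM in vehicle libraries (log2 −1.99 ± 0.35, adjusted p = 0.00118, edgeR). Sytl4, which encodes granuphilin and was picked for that role after its values were seen, had 533, 605 and 551 CPM in cisplatin libraries, against 1897, 1460 and 2138 CPM in vehicle libraries (log2 −1.70 ± 0.28, adjusted p = 0.000779, edgeR). In both genes all cisplatin libraries lay below all vehicle libraries. The fifth gene that fell was Mlph, melanophilin, with a log2 fold change of −1.72 ± 0.43 (adjusted p = 0.00983, edgeR) that passed in all alternatives but the one without vehicle 1 (log2 −1.55, adjusted p = 0.0646). The gene that rose was Sytl1, another synaptotagmin-like protein that binds Rab27, at 173, 164 and 247 CPM in cisplatin libraries, against 34.4, 38.5 and 31.1 CPM in vehicle libraries (log2 2.49 ± 0.31, adjusted p = 0.000124, edgeR).

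The factors that recycle and lipid-modify all Rabs did not pass the test. Of 8 GDP dissociation inhibitor, escort and prenylation genes, 4 were tested and 0 were called, where 26.1% of all genes were. The count was also 0 at an unadjusted p under 0.05, with DESeq2 and with limma-voom. Gdi2 had 123, 84.6 and 101 CPM in cisplatin libraries, against 64.0, 111 and 81.9 CPM in vehicle libraries (log2 0.27 ± 0.32, adjusted p = 0.585, edgeR). The groups overlapped.

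Of the 20 endosomal Rab genes, 11 were tested, 1 rose and 1 fell, where 12.3% and 13.8% of all genes did, with a median log2 fold change of −0.20. Rab21, an early endosomal GTPase that carries integrins, had 226, 220 and 237 CPM in cisplatin libraries, against 101, 57.5 and 126 CPM in vehicle libraries. The cisplatin libraries lay close together and above every vehicle library, a 2.38-fold rise (log2 1.25 ± 0.31, adjusted p = 0.0105, edgeR) that was called with any 1 library left out, with adjusted p up to 0.0482. Rab7, which takes late endosomes and autophagosomes to lysosomes, had 56.7, 106 and 52.6 CPM in cisplatin libraries, against 145, 157 and 133 CPM in vehicle libraries. The fall was 2.02-fold with no overlap (log2 −1.02 ± 0.33, adjusted p = 0.0368, edgeR). Leaving out cisplatin 1, cisplatin 3 or any 1 vehicle library gave adjusted p between 0.0846 and 0.139, while without cisplatin 2 the log2 fold change was −1.41 (adjusted p = 0.0127).

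The other 9 tested endosomal genes had log2 fold changes from −0.68 to 0.83 by their most abundant probe, none called. Rab35, of the recycling route to the plasma membrane, changed least among them, with 39.8, 67.5 and 48.3 CPM in cisplatin libraries, against 60.5, 25.9 and 62.6 CPM in vehicle libraries (log2 0.05 ± 0.41, 95% interval −0.74 to 0.85). The early endosomal Rab5c and the recycling Rab4b stood at the ends of that range, at 0.83 ± 0.37 and −0.68 ± 0.34, with adjusted p = 0.119 and 0.164 (edgeR). Of 23 endosomal effectors and regulators in the table, 12 were tested, 2 fell and 0 rose, where 13.8% and 12.3% of all genes did. None rose at an unadjusted p under 0.05, with DESeq2 or with limma-voom, and the median log2 fold change was −0.26. Rabgap1l, a GTPase-activating protein for Rabs, had 1.69, 8.56 and 6.43 CPM in cisplatin libraries, against 47.4, 59.3 and 33.8 CPM in vehicle libraries (log2 −3.08 ± 0.57, adjusted p = 0.00172, edgeR). Eea1, the Rab5 effector that tethers early endosomes, had 24.5, 10.5 and 17.2 CPM in cisplatin libraries, against 66.0, 65.7 and 61.4 CPM in vehicle libraries (log2 −1.88 ± 0.41, adjusted p = 0.00466, edgeR). Neither gene overlapped between the groups, but Rabgap1l passed the count filter only through its vehicle libraries and so could only be called lower.

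The summed level of the Rab3 and Rab27 rows was 173, 123 and 154 CPM in cisplatin libraries, against 366, 447 and 383 CPM in vehicle libraries. It was lower under cisplatin in 3 of 3 mice, with TMM factors and with library totals. The summed level of the endosomal rows was 937, 848 and 850 CPM in cisplatin libraries, against 702, 730 and 756 CPM in vehicle libraries. This sum was higher in 3 of 3 mice with TMM factors but in 1 of 3 with library totals. It was higher through Rab21: without the Rab21 rows it was 521, 514 and 498 CPM in cisplatin libraries, against 540, 580 and 552 CPM in vehicle libraries, lower in 3 of 3 mice under both scalings. These settings for the sums were chosen after the data were seen. The ratio of the secretory sum to the endosomal sum, which does not depend on library scaling, was 0.185, 0.145 and 0.182 in cisplatin libraries, against 0.521, 0.612 and 0.506 in vehicle libraries. It averaged 0.170 ± 0.0224 in cisplatin libraries and 0.546 ± 0.0576 in vehicle libraries (SD, n = 3 each), with no overlap. Without the Rab3a rows it was 0.0870 ± 0.00440 in cisplatin libraries and 0.265 ± 0.0179 in vehicle libraries, and without the Rab27a rows 0.105 ± 0.0179 in cisplatin libraries and 0.336 ± 0.0411 in vehicle libraries. Without the Rab21 rows the ratio was 0.294 ± 0.0493 in cisplatin libraries and 0.713 ± 0.050 in vehicle libraries. The ratio is a description with no test, it adds probes that may differ in efficiency, and it was not tested for cell make-up: the alpha cell, the endothelial and stromal, and the immune marker sums were lower in all cisplatin libraries than in all vehicle libraries. The beta cell and the delta and PP cell sums overlapped, but the beta cell sum is mostly Ins1, Ins2 and Iapp, and the 4 beta cell genes that fell did so without overlap.

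**Figure D3:**
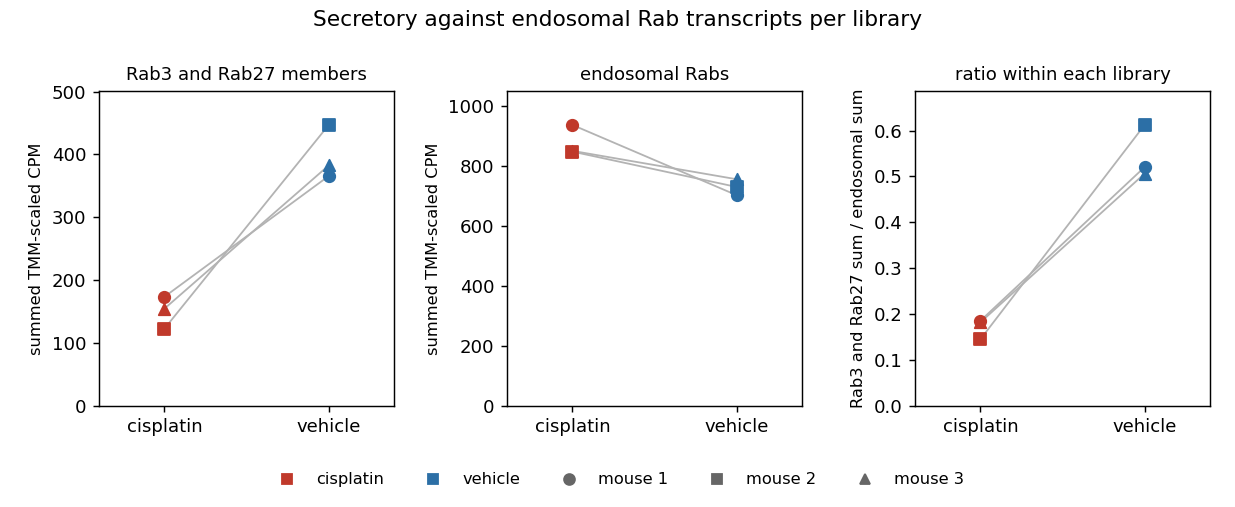
Summed TMM-scaled CPM of the Rab3 and Rab27 rows (left) and of the endosomal rows (middle), and their ratio (right), in each of 3 cisplatin and 3 vehicle libraries, with lines joining libraries of the same mouse. The ratio lies between 0.145 and 0.185 in cisplatin libraries and between 0.506 and 0.612 in vehicle libraries.

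Of the 16 ER and Golgi Rabs, 10 were tested, 3 fell and 2 rose, where 13.8% and 12.3% of all genes did. Rab1a, which drives ER-to-Golgi transport, had 9.30, 12.4 and 10.7 CPM in cisplatin libraries, against 43.5, 76.4 and 35.8 CPM in vehicle libraries. It was 4.77-fold lower with no overlap, the largest fold change of the 11 called genes by their most abundant probe (log2 −2.25 ± 0.46, adjusted p = 0.00341, edgeR), and stayed called with any 1 library left out, with adjusted p up to 0.0250. Rab6a, of transport within and back through the Golgi, had 30.4, 39.9 and 67.6 CPM in cisplatin libraries, against 83.0, 140 and 109 CPM in vehicle libraries. It was 2.41-fold lower, also without overlap (log2 −1.27 ± 0.37, adjusted p = 0.0235, edgeR), but leaving out any library except cisplatin 3 gave adjusted p between 0.0624 and 0.0955. Rab6b, its isoform best known from neurons, had 17.8, 4.75 and 3.22 CPM in cisplatin libraries, against 42.7, 15.2 and 42.5 CPM in vehicle libraries. This was 3.81-fold lower with overlap between the groups, though lower under cisplatin in 3 of 3 mice (log2 −1.93 ± 0.66, adjusted p = 0.0452, edgeR). With 21, 5 and 3 counts in cisplatin libraries, Rab6b passed the count filter only through its vehicle libraries, so it could only be called lower. The call of Rab6b was lost without cisplatin 2, cisplatin 3, vehicle 1 or vehicle 3 (adjusted p 0.123 to 0.192), with limma-voom (0.0840) and at equal depth (0.0607), and without cisplatin 1 the log2 fold change was −2.96.

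Rab33b, a Golgi GTPase that binds the autophagy protein Atg16l1, had 298, 232 and 238 CPM in cisplatin libraries, against 117, 126 and 166 CPM in vehicle libraries. It rose 1.88-fold with no overlap (log2 0.91 ± 0.27, adjusted p = 0.0262, edgeR), and the adjusted p was 0.0532 to 0.141 without cisplatin 1 or any 1 of the vehicle libraries. Rab43, another Golgi Rab, had 30.4, 44.7 and 80.4 CPM in cisplatin libraries, against 24.5, 8.84 and 21.3 CPM in vehicle libraries. The rise was 2.79-fold with no overlap (log2 1.48 ± 0.49, adjusted p = 0.0401, edgeR), and only the fit without cisplatin 1 kept the call, with adjusted p of 0.0670 to 0.179 in the other 5. Rab2a, of the ER-Golgi intermediate, had 574, 261 and 330 CPM in cisplatin libraries, against 274, 859 and 408 CPM in vehicle libraries (log2 −0.40 ± 0.40, adjusted p = 0.517, edgeR). Vehicle 2 held the highest value, and without it the log2 fold change was 0.18. Rab36, also Golgi-associated, changed least of the group, at 0.30 ± 0.62 (95% interval −0.92 to 1.51).

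Rab7 and Rab43 are near neighbours on the − strand of chromosome 6, Rab43 at chr6:87788853-87812164 and Rab7 at chr6:87999106-88045270 (GENCODE M21, GRCm38), with 187 kb and 5 coding genes between them. One fell and the other rose. Their upstream sequences follow, as a pair with opposite directions, with the same marks in capitals.

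Rab7 (chr6:88045271-88045520, - strand): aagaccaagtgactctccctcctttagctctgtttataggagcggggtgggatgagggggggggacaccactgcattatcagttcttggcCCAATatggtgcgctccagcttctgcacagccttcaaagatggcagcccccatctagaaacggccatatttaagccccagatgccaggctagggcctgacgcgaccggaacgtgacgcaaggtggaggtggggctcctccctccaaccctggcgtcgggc
Rab43 (chr6:87812165-87812414, - strand): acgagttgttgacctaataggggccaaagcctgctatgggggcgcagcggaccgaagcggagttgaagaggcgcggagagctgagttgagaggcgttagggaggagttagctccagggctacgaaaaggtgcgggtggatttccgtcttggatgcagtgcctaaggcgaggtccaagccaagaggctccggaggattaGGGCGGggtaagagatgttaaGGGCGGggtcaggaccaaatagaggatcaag

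The Rab7 stretch held CCAAT at 1 place and no GGGCGG, and the Rab43 stretch held GGGCGG at 2 places and no CCAAT. Of the other 3 Rab43 stretches, from other transcript starts, 1 lay inside the stretch shown and held the same 2 GGGCGG places. Another held GGGCGG at 4 places, and the last held none of the motifs.

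Of the other exocytic Rabs, 5 of 6 were tested, 1 rose and 0 fell, where 12.3% and 13.8% of all genes did. None fell at an unadjusted p under 0.05, with DESeq2 or with limma-voom. Rab13, which carries proteins from the trans-Golgi to tight junctions, had 49.1, 24.7 and 22.5 CPM in cisplatin libraries, against 8.70, 13.9 and 6.69 CPM in vehicle libraries. It rose 3.33-fold with no overlap (log2 1.74 ± 0.54, adjusted p = 0.0304, edgeR). With the mouse as a block the adjusted p of Rab13 was 0.0522, and without cisplatin 1, vehicle 1 or vehicle 3 it was 0.0752, 0.126 and 0.154. Rab8a, which acts from the trans-Golgi to the plasma membrane and cilium, changed least of the group, at 0.14 ± 0.53 (95% interval −0.91 to 1.19). Rab10, Rab26 and Rab37, the others tested, ran from −1.0 to 1.09 with adjusted p from 0.267 to 0.682 (edgeR).

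Among the 11 genes of lysosome-related organelles and other roles, 4 were tested. Of these 1 rose and 0 fell, where 12.3% and 13.8% of all genes did. None fell at an unadjusted p under 0.05, with DESeq2 or with limma-voom. Rab23, a negative regulator of Hedgehog signalling with a role at the cilium, had 103, 82.7 and 68.6 CPM in cisplatin libraries, against 30.04, 34.1 and 44.5 CPM in vehicle libraries. It rose 2.34-fold with no overlap (log2 1.23 ± 0.34, adjusted p = 0.0182, edgeR), and the adjusted p was 0.0994 without vehicle 1 and 0.0508 without vehicle 3. Rab12, which acts between recycling endosomes and lysosomes, had 46.5, 23.8 and 19.3 CPM in cisplatin libraries, against 32.4, 35.4 and 25.2 CPM in vehicle libraries (log2 −0.04 ± 0.44, 95% interval −0.91 to 0.83). Its libraries overlapped, with the highest and lowest values both under cisplatin.

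**Figure D4:**
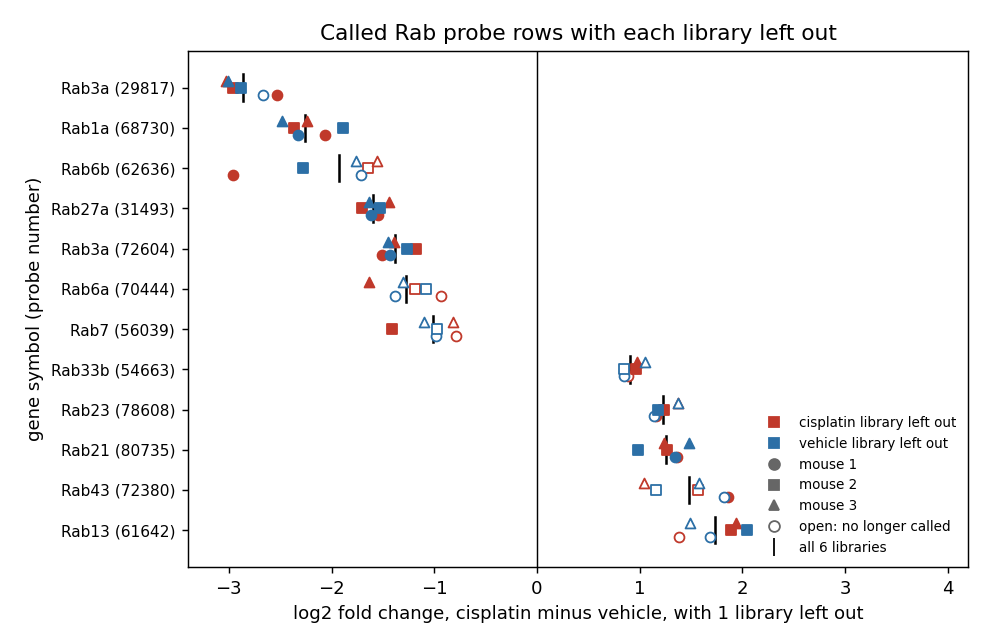
Log2 fold change, cisplatin minus vehicle, of the 12 called Rab probe rows with each of the 6 libraries left out (symbols mark the mouse, colours the group of the library left out) and with all 6 libraries (vertical ticks). Filled symbols passed at an adjusted p under 0.05. Every row kept its direction, and Rab1a, Rab27a, Rab21 and the more abundant Rab3a probe stayed filled throughout.

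For 9 Rab genes a second probe was tested, which reads another stretch of the gene's RNA. The second Rab3a probe gave 2, 3 and 3 counts in cisplatin libraries, against 57, 30 and 40 counts in vehicle libraries, with no overlap. Its fall was 7.28-fold (log2 −2.86 ± 0.70, adjusted p = 0.00884, edgeR), but limma-voom gave 0.0601 and the fit without vehicle 1 gave −2.67 with an adjusted p of 0.103. This row passed the count filter only through its vehicle libraries, so it could only be called lower. The second Rab27a probe had 18.6, 1.90 and 23.6 CPM in cisplatin libraries, against 23.3, 23.4 and 21.7 CPM in vehicle libraries (log2 −0.63 ± 0.65, adjusted p = 0.523, edgeR), so that the low value came from cisplatin 2 and the call of Rab27a rests on its more abundant probe. The second Rab21 probe had 190, 114 and 116 CPM in cisplatin libraries, against 60.9, 92.2 and 77.5 CPM in vehicle libraries. These did not overlap, and the adjusted p was 0.0610 with edgeR (log2 0.87 ± 0.32), 0.0335 with DESeq2 and 0.0410 with limma-voom.

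The second probes of Rab1a, Rab6a and Rab43 had the sign of the first and were not called, at −1.33 ± 0.68, −0.97 ± 0.96 and 1.1 ± 0.48 (adjusted p = 0.170, 0.505 and 0.111, edgeR). In Rab11a and Rab40c, neither called by either probe, the pair differed in sign. Rab11a, of recycling endosomes, gave −0.20 ± 0.43 by one probe and 0.99 ± 0.50 by the other, and Rab40c, which recruits a ubiquitin ligase, gave −0.13 ± 0.65 and 1.35 ± 0.63. Both Rab5c probes were above 0, at 0.83 ± 0.37 and 0.16 ± 0.44. Which transcripts each probe covers was not used here.

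**Figure D5:**
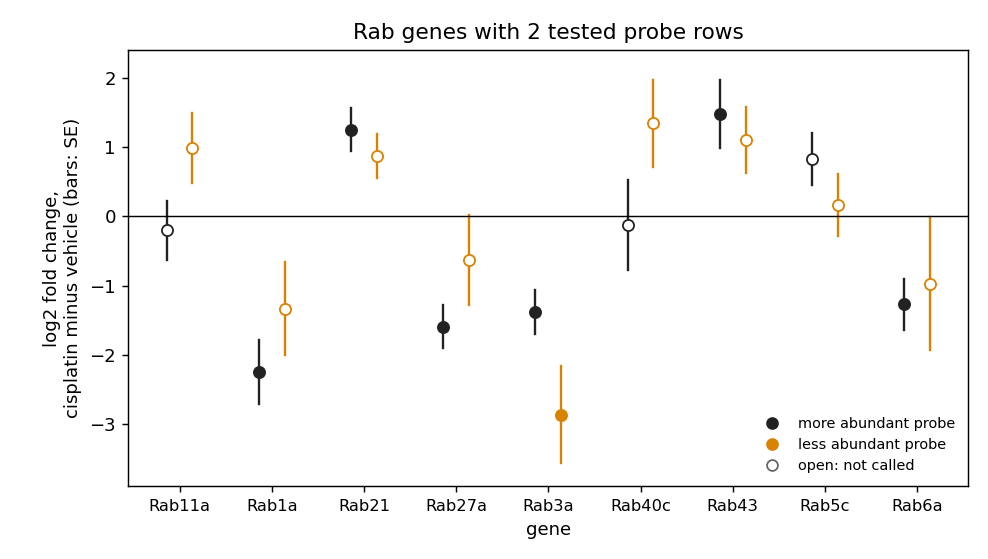
Log2 fold change, cisplatin minus vehicle, with its standard error (bars) for both probes of the 9 Rab genes with 2 tested rows, filled where the adjusted p was under 0.05. The signs are the same in 7 genes and opposite in Rab11a and Rab40c, and Rab3a is the gene with both probes called. Its less abundant probe passed the count filter only through vehicle libraries.

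The 11 called genes lie on 8 chromosomes. Besides those placed above, the genes that fell span chr11:20201432-20226856 (Rab1a, + strand), chr7:100607410-100641268 (Rab6a, + strand) and chr9:103111787-103185276 (Rab6b, + strand). The genes that rose span chr10:115287084-115315594 (Rab21, − strand), chr1:33719887-33742564 (Rab23, + strand), chr3:51483920-51496232 (Rab33b, + strand) and chr3:90213695-90226385 (Rab13, + strand), all in GENCODE M21 on GRCm38. The median gene span was 22.7 kb for the 5 that rose (12.3 to 28.5), 40 kb for the 6 that fell (4 to 73.5) and 22.5 kb for the 23 not called (2.20 to 72.1). Across the 34 tested genes, which share the same libraries, Spearman's rho between span and log2 fold change was −0.34, a description with no test. On the opposite strand, Rab3a is overlapped by Mpv17l2, Rab6a by Mrpl48, Rab7 by Gm5577 and Rab33b by Gm38160. Whether counting used strand is not given in the sources used here.

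Because close Rabs resemble each other, the longest identical stretch between annotated transcripts was found for 21 pairs of paralogs. It ran from 14 to 38 bases with a median of 23, and 0 of 21 pairs shared 50 bases or more. Rab1a and Rab1b shared the longest, 38 bases, followed by 35 for Rab5a and Rab5b, 33 for Rab3b and Rab3d and 32 for Rab27a and Rab27b, while Rab6a and Rab6b shared 14. Probe sequences were not used here, so whether a probe lies on such a stretch was not tested.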

How the data were processed

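Counts per probe row are whole numbers as deposited by the authors. STAR 2.7.10b, fastp 0.23.2 and DESeq2 1.44.0 are listed, without roles, per the submitters' processing notes. Build, counting rules and strand use: not given in the sources used here. No row lacked a gene name, and 0 columns were left out.

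Rows were filtered with edgeR 4.0.16 (minimum count 10), scaled with TMM and fitted with treatment as the only term (R 4.3.3, robust quasi-likelihood F-test, Benjamini-Hochberg over all 9381 tested rows). SE is the log2 fold change over the root of its F value. The p-values measure the spread of 3 libraries per group. Alternatives used limma 3.58.1 (voom), DESeq2 1.42.0, other scalings and filters, the sum of a gene's probes, equal depth by thinning, leaving out each library, and the mouse as a block.

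The same mice gave both arms, per the labels' animal identifiers, which is where the pairing comes from. Deviations from group means correlated at −0.127, 0.0335 and 0.232 within mice and at −0.24 to 0.183 between mice. No 2 libraries of a group agreed within counting noise.

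Members, gene lists and tests were chosen with earlier results of these data known. The text names every called Rab gene, all Rab3 and Rab27 genes, the 3 most abundant in vehicle libraries (Rab2a, Rab3a and Rab7), the least changed gene of each group, all genes with 2 tested probes, and up to 4 called members of each effector list with the largest change or, with none called, the 2 most abundant, of which 1 is not reported here. Other genes named were chosen after their values were seen. A gene with several probes is represented by the one with the highest mean CPM. Gene spans came from GENCODE M21 and promoter windows from RefSeq on GRCm38.p6.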

Additional observations from a re-analysis of the deposited data

How the results depend on the processing

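Leaving out 1 library at a time gave 4 to 10 called Rab rows (12 with all 6), 1 to 5 higher and 3 to 5 lower, and 4 to 8 called Rab genes (11 with all 6). Over all rows it gave 1085 to 2538 calls (2344 with all 6), 504 to 1244 higher and 581 to 1294 lower. The lowest total came without vehicle 1, and without vehicle 3 it was 1321. The endosomal genes called lower numbered 0 to 1, and the median Rab log2 fold change ran from −0.20 to 0.05. Uncalled genes changed sign over these fits, from −0.43 to 0.20 for Rab12, −0.69 to 0.18 for Rab2a, −0.26 to 0.30 for Rab35, −0.18 to 0.69 for Rab36 and −0.35 to 0.50 for Rab8a.

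Library totals alone gave 459 rows higher and 2023 lower over all rows, 0 Rab rows higher (2 at an unadjusted p under 0.05), 7 Rab genes called, 0 endosomal genes higher and 2 lower, and log2 fold changes of −0.46 for Rab35, −0.27 for Rab36 and −0.21 for Rab8a. With no filter 7 Rab genes were called and 1 Rab row was higher, and Rab35 was at −0.07; at equal depth it was at −0.05. The cause of these differences was not tested, and neither was the effect of the fewer libraries in each fit that leaves 1 out. With the mouse as a block, 11 Rab rows (4 higher, 7 lower), 10 Rab genes and 2197 rows in all were called, and among Rab rows only the call of Rab13 changed. The Rab3 and Rab27 genes kept 2 lower and 0 higher under all 15 alternatives. In these libraries 31 Rab rows were under the count filter and were not tested, and the reason for their low counts was not examined.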
